A study of Bos taurus with 15 samples.

Results

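The cells described here were CD4 T cells of the adult bovine intestine, taken from the duodenum, jejunum, cecum, and colon libraries of a single-cell atlas of Holstein cattle. A barcode was counted as a CD4 T cell when it held 500 to 4000 detected genes, fewer than 50000 unique molecular identifiers (UMIs, each standing for 1 captured transcript), at least 1 UMI of CD3E and of CD4, and 0 UMIs of CD8A and of FOXP3. The rule thus used the counts of these 4 genes, so their levels describe the choice and are not findings. In all, 7055 of the 40458 kept barcodes of the 4 adult libraries passed, with 3301 in duodenum, 1266 in jejunum, 1058 in cecum, and 1430 in colon. The whole series held 132361 kept barcodes in 15 libraries (11 newborn and 4 adult), of which 8482 passed the same rule.

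The 4 adult (AD) libraries came from 1 lactating Holstein dairy cow, with 1 library for each segment and no genotype or treatment differing between them. The outer muscle had been taken off and red blood cells lysed. The duodenum and cecum were dissociated with the Lamina Propria Dissociation Kit, and the jejunum and colon with the Multi Tissue Dissociation Kit 2. Each kit was thus used on 1 small and 1 large intestinal segment. Because every segment was a single library of the same animal, differences between segments have no replicate check and are given without p-values.

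CD4 T cells are the helper branch of the adaptive immune system. They recognize peptides on MHC class II molecules, and once activated they direct other cells with cytokines, IFNG in the type 1 program, IL17A, IL17F, and IL22 in the type 17 program, and IL21 in the follicular program that helps B cells. In the gut most of them are memory cells of the lamina propria, and the chemokine receptor CCR9 and the orphan receptor GPR15 are known for guiding T cells to the small and the large intestine, respectively.

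The label was checked against other T cell genes and against markers of other lineages. CD3D, a T cell receptor subunit that the rule did not use, was at 495 CPM in duodenum, 395 in jejunum, 559 in cecum, and 577 in colon, where CPM is the gene's UMIs per 1000000 UMIs summed over the CD4 T cells of a segment. CD8B, the partner chain of CD8A, was at 4.62 CPM in duodenum, 11.3 in jejunum, 14.0 in cecum, and 12.2 in colon, against 339 to 399 CPM in the CD8A+ CD4- T cells of the same libraries. The natural killer cell genes NCR1 and KLRF1 were at most at 0.748 CPM and at 0 CPM, respectively. Both natural killer cell genes were thus near 0 in every segment. CD8B was low beside the CD8A+ CD4- cells, which is no independent check because both classes were chosen by CD8A. The whole list of CD8, gamma delta T, and NK cell markers summed to 164 CPM in duodenum, 507 in jejunum, 180.3 in cecum, and 229 in colon, and of its 3 tested members FCGR3A, an Fc receptor, and TYROBP, an adaptor that macrophages also express, were at least 2-fold higher in jejunum than in every other segment.

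The jejunal cells stood apart in their content of other transcripts. At least 3 UMIs of macrophage and dendritic cell markers were found in 107 duodenal cells (3.24%), 281 jejunal cells (22.2%), 19 cecal cells (1.80%), and 31 colonic cells (2.17%). At least 3 UMIs of B and plasma cell markers were found in 105 (3.18%), 11 (0.869%), 17 (1.61%), and 14 cells (0.979%), respectively. Macrophages themselves carry CD4 UMIs, here in 17.5% to 52.7% of the macrophage-gated cells. C1QA, a complement gene of macrophages, was at 245 CPM in duodenum, 2929.6 in jejunum, 467 in cecum, and 646 in colon. It is itself one of the markers, so its level after removal of the marked cells is fixed by that filter and is no finding. Values without all marked cells (3093, 979, 1022, and 1385 cells kept) are given below for the counts and for some genes. Summed over the whole lists, macrophage and dendritic cell markers were at 697 CPM in duodenum, 7150.5 in jejunum, 1067 in cecum, and 1540.2 in colon, and B and plasma cell markers at 8088 CPM in duodenum, 2441 in jejunum, 1575 in cecum, and 2293 in colon. Epithelial markers summed to 40.6 CPM in duodenum, 274 in jejunum, 291 in cecum, and 196 in colon, and stromal and vessel markers to 22.7 CPM in duodenum, 50.8 in jejunum, 25.2 in cecum, and 110.5 in colon. The epithelial sum was lowest in duodenum.

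The 4 libraries held 48674267 to 67485845 UMIs, and their CD4 T cells 13198449 UMIs in duodenum, 6730020 in jejunum, 4010791 in cecum, and 5910964 in colon. The median cell had 3576, 4308, 3316.5, and 3432.5 UMIs and 1354, 1578.5, 1219.5, and 1278 genes, in the same order. CD4 was seen as a single UMI in 38.8% of duodenal, 30.9% of jejunal, 44.1% of cecal, and 34.3% of colonic members, so the gate reads CD4 near its limit of detection. CD3E was seen as a single UMI in 3.45%, 14.3%, 3.02%, and 2.80% of the members, most often in jejunum. Any pair of the 4 libraries shared 23 to 35 barcodes, of which at most 3 were members in both. At the limit of 500 genes, 8, 6, 3, and 3 members had 500 to 549 genes, while 8, 12, 1, and 5 otherwise qualified barcodes fell short of it by 50 genes or fewer. Above the upper limit, 4, 16, 3, and 8 barcodes exceeded 4000 genes, and none was lost to the UMI limit.

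CD4 T cells made up a larger part of the CD3E+ cells in the small than in the large intestine. Their share was 44.6% of 7399 CD3E+ cells in duodenum (95% interval 43.5 to 45.8, exact Clopper-Pearson) and 29.5% of 4292 in jejunum (28.1 to 30.9). It was 12.8% of 8236 in cecum (12.1 to 13.6) and 17.7% of 8098 in colon (16.8 to 18.5). Duodenum was highest and cecum lowest, and no pair of intervals overlapped. Among the few cells with no UMI of other cell markers this order did not hold, since the share was 23.3% of 60 CD3E+ cells in jejunum (13.4 to 36.0), 19.7% of 594 in cecum, and 24.9% of 466 in colon. These intervals, and the Poisson intervals and floors below, cover counting error only. The Poisson intervals take each UMI as independent, so they are too narrow where few cells hold most UMIs of a gene. CD8A+ CD4- T cells numbered 1856, 1573, 2989, and 3352, cells with both CD4 and CD8A 176, 140, 85, and 145, and cells with CD4 and FOXP3 17, 11, 2, and 2. A further 2044, 1301, 4100, and 3166 CD3E+ cells had neither CD4 nor CD8A, which at this depth can also hold CD4 T cells whose CD4 transcripts were not captured. In dissociated tissue, a lower share cannot be told apart from a lower recovery of these cells.

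Between regions, the comparison asked which genes of CD4 T cells separated the large from the small intestine irrespective of the kit. A gene was counted when both libraries of a region lay at least 2-fold above both libraries of the other, on CPM with 5 CPM added. Among 5973 genes at 20 CPM or more in at least 1 segment, 21 (0.352%) were higher in large intestine and 8 (0.134%) were lower. Without the cells marked by macrophage or B cell UMIs, 33 (0.571%) and 13 (0.225%) of 5783 genes met the rule, including all 21 and 7 of the 8 genes counted in the full set. The counts were 52 and 22 of 5536 genes without jejunum, and 75 and 118 of 7210 among the 14 to 117 cells per segment with no UMI of other cell markers. The same rule in CD8A+ CD4- T cells counted 23 (0.412%) and 29 (0.52%) of 5581 genes. Of the 21 genes higher in the large intestinal CD4 T cells, 7 (33.3%, and 30.4% of the 23) were among those of the CD8A+ cells, including GPR15, CD7, and KLRJ1. Of the 8 lower genes, 2 (25.0%, and 6.90% of the 29) were shared, CCR9 and an unnamed gene. That unnamed gene no longer met the rule in CD4 T cells without the marked cells.

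**Figure D1:**
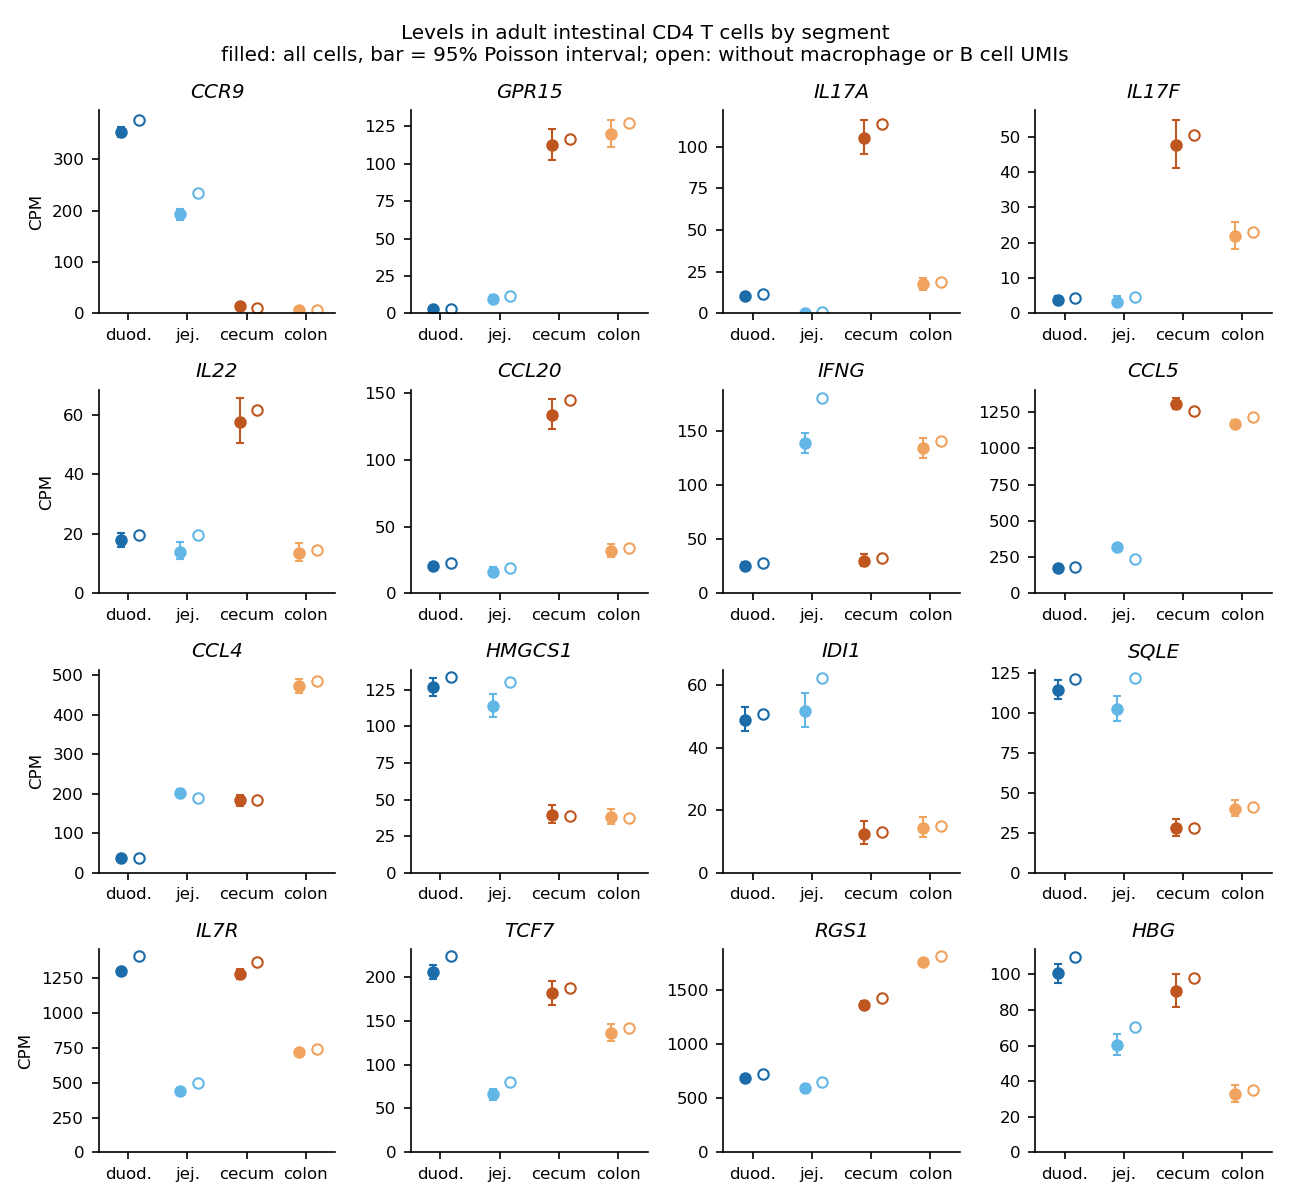
Level (y axis, CPM from 0) of 16 genes in CD4 T cells of each segment (x axis), with filled points and 95% Poisson intervals for all cells and open points for cells without macrophage or B cell UMIs. CCR9 goes from 353 CPM in duodenum to 7.27 in colon, GPR15 from 2.88 to 120.1, and the open points lie near the filled ones except in jejunum.

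The homing receptors gave a wide regional gap. CCR9, the receptor for the small intestinal chemokine CCL25, was at 353 CPM (95% interval 343 to 364) in duodenum, 193 CPM (95% interval 183 to 204) in jejunum, 13.7 CPM (95% interval 10.3 to 17.8) in cecum, and 7.27 CPM (95% interval 5.26 to 9.80) in colon. Both small intestinal libraries lay at least 10.6-fold above both large intestinal ones on the scale with 5 CPM added. GPR15 was at 2.88 CPM (95% interval 2.04 to 3.95) in duodenum, 9.51 CPM (95% interval 7.32 to 12.1) in jejunum, 112 CPM (95% interval 102 to 123) in cecum, and 120.1 CPM (95% interval 111 to 129) in colon. The order was thus turned around, with a gap of at least 8.09-fold. Both receptors also met the 2-fold regional rule in the CD8A+ CD4- cells, so the pattern was not particular to CD4 T cells. After removal of the marked cells CCR9 was at 377 CPM in duodenum, 235 in jejunum, 10.8 in cecum, and 7.08 in colon.

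In shares of cells, each thinned to 1500 UMIs so that depth was equal, CCR9 was seen in 39.3% in duodenum, 26.8% in jejunum, 1.25% in cecum, and 0.712% in colon. B and plasma cells of the same libraries had CCR9 in 9.01%, 12.4%, 0.193%, and 0.299%, and macrophages in 0.794% to 2.99%. The small intestinal CD4 T cells were above all of these shares. The intervals of the cecal (0.667 to 2.13) and colonic CD4 T cells (0.342 to 1.31) overlapped those of the B and plasma cells there (0.00488 to 1.07 and 0.00758 to 1.66). GPR15 was seen in 0.496% in duodenum, 1.62% in jejunum, 15.7% in cecum, and 16.7% in colon, against at most 2.10% of B and plasma cells. Without thinning, both receptors were found in 25 duodenal (0.757%), 31 jejunal (2.45%), 5 cecal (0.473%), and 10 colonic cells (0.699%). Of the 16 genes of the homing and migration list, 10 were tested, and only these 2 met the regional rule. ITGA4 and ITGB7, which pair as the gut homing integrin, were at 78.9 CPM in duodenum, 71.3 in jejunum, 69.6 in cecum, and 100.2 in colon, and at 90.4 CPM in duodenum, 184 in jejunum, 122 in cecum, and 148 in colon. CXCR6, a receptor of tissue memory T cells, was at 269 CPM in duodenum, 403 in jejunum, 284 in cecum, and 250.4 in colon. None of these 3 genes separated the regions.

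**Figure D2:**
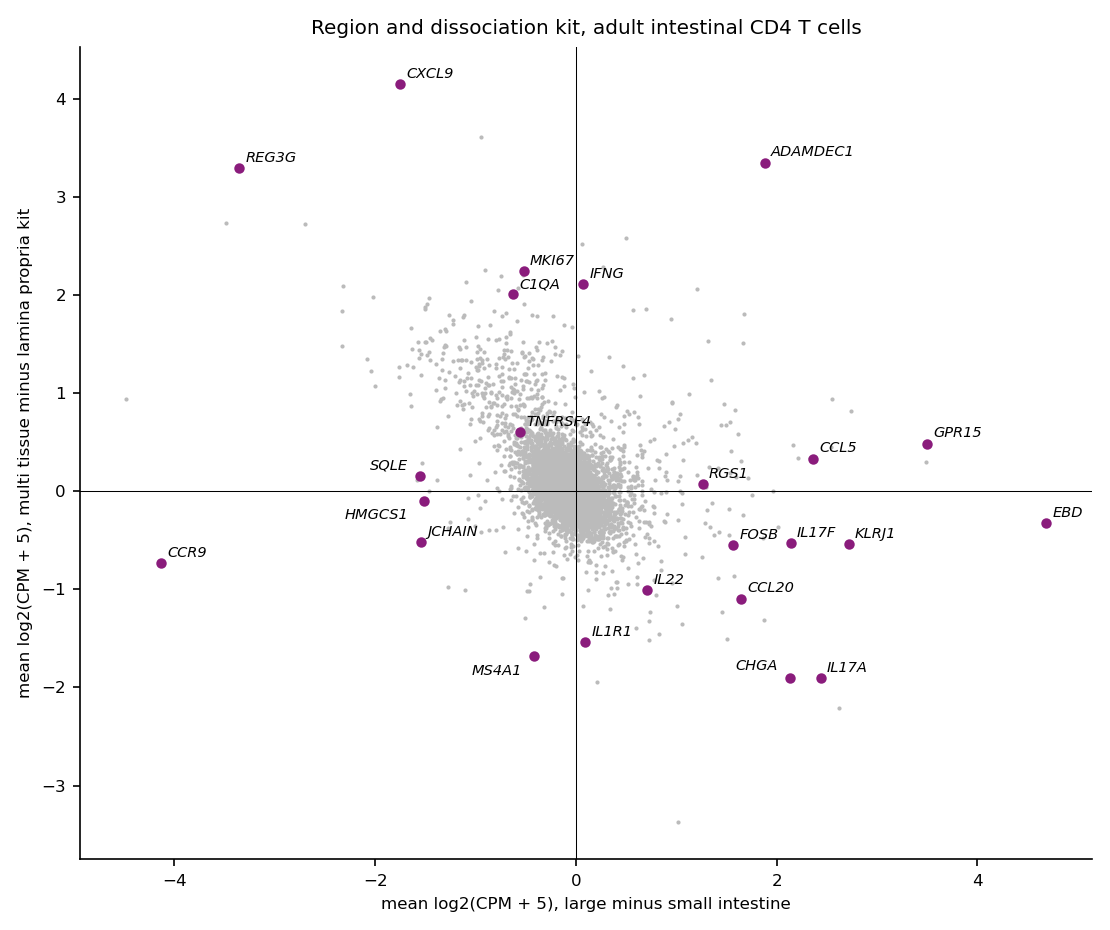
Difference between regions (x axis, mean log2 of large minus small intestine) against the difference between kits (y axis, mean log2 of Multi Tissue minus Lamina Propria kit) for 5973 genes tested in CD4 T cells, each a point, with named genes enlarged. CCR9 lies at -4.14 and GPR15 at 3.50 on the region axis, and IFNG and MKI67 lie high on the kit axis.

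Other named genes that were higher in the large intestine included effector, adhesion, and cytoskeletal genes. CCL5, a chemokine of effector T cells, was at 176 CPM in duodenum, 317 in jejunum, 1309 in cecum, and 1171 in colon. CD7, a T cell surface protein, was at 14.9 CPM in duodenum, 18.1 in jejunum, 115 in cecum, and 57.5 in colon, and KLRJ1, a killer cell lectin-like receptor, at 10.7 CPM in duodenum, 6.69 in jejunum, 107 in cecum, and 66.0 in colon. For KLRJ1 the values came from few cells, 8, 3, 34, and 37. S100A4, a calcium-binding protein, was at 222 CPM in duodenum, 329.6 in jejunum, 1001 in cecum, and 816 in colon, and the filament gene VIM at 101 CPM in duodenum, 90.5 in jejunum, 236 in cecum, and 404 in colon. GADD45B, a stress-induced gene, was at 109 CPM in duodenum, 108 in jejunum, 416 in cecum, and 302 in colon, and CD96, an adhesion receptor, at 93.0 CPM in duodenum, 79.3 in jejunum, 229.9 in cecum, and 225 in colon. ADGRG1, a receptor of cytotoxic lymphocytes, was at 5.99 CPM in duodenum, 11.7 in jejunum, 37.6 in cecum, and 31.1 in colon. For each of these 8 genes both large intestinal libraries were above both small intestinal ones, and for all but ADGRG1 the same held in the CD8A+ CD4- cells, where CCL5 was at 5703 CPM in duodenum, 5979 in jejunum, 10460.2 in cecum, and 11235 in colon. Among the 14 to 117 cells per segment with no UMI of other cell markers, the regional differences of CD96 (-0.028), CD7 (-0.91), and ADGRG1 (-2.10) changed sign on the log2 scale.

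Among the 15 tested of 16 T cell receptor and signalling genes, CD96 alone met the regional rule, and the median difference was 0.27 on the log2 scale against -0.08 over all tested genes. The tissue residency list had a median of 0.59 over 9 tested of 14 genes, and none met the rule. CD69, which retains lymphocytes in tissue, was at 369 CPM in duodenum, 241 in jejunum, 515 in cecum, and 762 in colon, and RGS1, a regulator of chemokine receptor signalling, at 689 CPM in duodenum, 595 in jejunum, 1359.8 in cecum, and 1754 in colon. RGS1 missed the rule narrowly, with a smallest gap of 1.97-fold. In thinned cells RGS1 was seen in 46.5% in duodenum, 43.3% in jejunum, 65.9% in cecum, and 76.1% in colon, and CD69 in 32.4% in duodenum, 24.0% in jejunum, 41.2% in cecum, and 52.5% in colon. ITGAE, the integrin chain of intraepithelial lymphocytes, was low throughout, at 7.27 CPM in duodenum, 8.32 in jejunum, 11.5 in cecum, and 12.2 in colon.

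Epithelial transcripts were also among the genes higher in the large intestine, namely EBD (an enteric beta-defensin), DEFB7, GUCA2A, KRT19, CA2, LYPD8, SPINK1, and WFDC2. EBD was at 0.455 CPM in duodenum, 15.8 in jejunum, 662 in cecum, and 107 in colon, but 1 cell held 59.8% of its cecal and 1 cell 50.8% of its colonic UMIs. Without the highest cell of each segment EBD was at 0.303 CPM in duodenum, 10.7 in jejunum, 266 in cecum, and 52.8 in colon. LYPD8 was at 0 CPM in duodenum, 0.446 in jejunum, 15.7 in cecum, and 54.1 in colon, and at 2.71 CPM in colon without its highest cell. KRT19, a keratin, was at 0.455 CPM in duodenum, 10.1 in jejunum, 59.3 in cecum, and 38.4 in colon, and its regional difference turned to -0.33 on the log2 scale when cells with 10% or more mitochondrial UMIs were left out. CA2, a carbonic anhydrase, turned to -0.018 in the same setting. Beta-defensins form a family of closely alike copies, so reads may be split among members. The whole epithelial list summed to 17.3 CPM in duodenum, 99.1 in jejunum, 307 in cecum, and 206 in colon without the marked cells, and its part in the regional differences was not tested. When the highest cell of every gene was left out, 18 genes were higher and 8 lower in the large intestine, including 16 of the 21 and 7 of the 8.

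The 8 genes lower in the large intestine were CCR9, an unnamed gene with a wider gap than CCR9, and 6 genes of sterol metabolism with narrower gaps. Without the marked cells, and also without the highest cell, the unnamed gene alone lost its call. HMGCS1, which makes the HMG-CoA that the pathway starts from, was at 127 CPM (95% interval 121 to 133) in duodenum, 114 CPM (95% interval 106 to 122) in jejunum, 39.6 CPM (95% interval 33.7 to 46.3) in cecum, and 38.4 CPM (95% interval 33.6 to 43.7) in colon. IDI1, an isomerase of the isoprenoid units, was at 48.9 CPM in duodenum, 51.7 in jejunum, 12.5 in cecum, and 14.4 in colon. FDFT1, the squalene synthase, was at 35.6 CPM in duodenum, 41.3 in jejunum, 11.5 in cecum, and 11.8 in colon. In all 3, both small intestinal libraries were more than 2-fold above both large intestinal ones. SQLE, which oxidizes squalene, was at 115 CPM in duodenum, 103 in jejunum, 27.9 in cecum, and 40.3 in colon, and CYP51A1, which demethylates lanosterol, at 122 CPM in duodenum, 97.9 in jejunum, 32.4 in cecum, and 40.9 in colon. INSIG1, a sterol sensor that is itself induced when sterols run low, was at 53.7 CPM in duodenum, 50.4 in jejunum, 10.7 in cecum, and 19.8 in colon. The 2-fold rule also held for these 3 genes. Among the cells with no UMI of other cell markers, the differences of IDI1 (-1.99) and INSIG1 (-2.12) changed sign.

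A list of 22 sterol synthesis genes was drawn up after these values had been seen, so it is a description and no independent evidence. Of its 17 tested members, 6 were lower in the large intestine by the rule and none was higher. The median difference was -1.08 on the log2 scale, against -0.08 over all genes, and 9 members were highest in duodenum, 8 in jejunum, and 0 in cecum or colon. Of all 5973 tested genes, 1709 were highest in duodenum, 2540 in jejunum, 667 in cecum, and 1057 in colon. Members such as IDI1, FDFT1, and INSIG1 reached the minimum of 20 CPM through the small intestine alone, so their rank was fixed by that filter. The list summed to 1183 CPM in duodenum, 1119 in jejunum, 506 in cecum, and 512 in colon. SREBF2, the transcription factor of the pathway, was at 126 CPM in duodenum, 113 in jejunum, 53.4 in cecum, and 54.1 in colon. In thinned cells HMGCS1 was seen in 14.0% in duodenum, 11.5% in jejunum, 3.46% in cecum, and 2.49% in colon, against 5.53%, 7.91%, 3.47%, and 2.99% of B and plasma cells. In CD8A+ CD4- cells HMGCS1 was at 117 CPM in duodenum, 169 in jejunum, 68.2 in cecum, and 80.2 in colon, which by the 2-fold rule did not separate the regions. Even so, all 8 genes lower in the large intestine were higher in both small intestinal libraries in those cells too. The sterol list summed to 1089 CPM in duodenum, 1355 in jejunum, 769 in cecum, and 925 in colon there.

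Type 17 genes had unlike orders along the intestine. IL17A was at 10.5 CPM (95% interval 8.78 to 12.4) in duodenum, 105 CPM (95% interval 95.7 to 116) in cecum, and 17.4 CPM (95% interval 14.2 to 21.1) in colon, while jejunum held 3 UMIs in 2 cells, or 0.446 CPM (95% interval 0.0919 to 1.30). IL17A was therefore highest in cecum. IL17F was at 3.79 CPM (95% interval 2.81 to 4.99) in duodenum, 3.27 CPM (95% interval 2.05 to 4.95) in jejunum, 47.6 CPM (95% interval 41.1 to 54.9) in cecum, and 21.8 CPM (95% interval 18.2 to 25.9) in colon, and met the rule for the large intestine. IL22, which acts on the epithelium, was at 17.8 CPM in duodenum, 14.0 in jejunum, 57.6 in cecum, and 13.5 in colon. The receptor genes IL23R and IL1R1 were highest in duodenum, with IL23R at 17.2 CPM in duodenum, 1.49 in jejunum, 8.98 in cecum, and 2.88 in colon, and IL1R1 at 40.0 CPM in duodenum, 6.54 in jejunum, 30.7 in cecum, and 11.5 in colon.

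By the 2-fold rule, 20 genes (0.335%) were higher in cecum than in every other segment, among them IL17A, IL22, and CCL20, the chemokine ligand of CCR6. CCL20 was at 20.2 CPM in duodenum, 15.9 in jejunum, 134 in cecum, and 31.8 in colon, but 1 cell gave 39.0% of its cecal UMIs, and without the highest cells it was at 18.3 CPM in duodenum, 14.3 in jejunum, 81.8 in cecum, and 14.7 in colon. With no UMI of other cell markers, the cecal excess turned to -1.57 for CCL20 and -2.33 for CHGA on the log2 scale. The other cecal genes included OLFM4, SPINK4, PIGR, CLCA1, and TFF3, which are known from epithelium. Of these, OLFM4, CLCA1, and TFF3 lost the call without their highest cell. None of the 6 tested members of the epithelial list met the cecal rule, and 5 of them were highest in cecum (against 667 of all 5973 tested genes). That rank is no independent evidence, because a member that reached the minimum of 20 CPM through cecum alone had to be highest there. CHGA, a neuroendocrine gene, was at 315 CPM in cecum, 92.5% of it from 1 cell. Leaving out the highest cell of every gene left 8 cecal genes, 7 of them among the 20. Without the marked cells 21 of 5783 genes (0.363%) met the rule, including 19 of the 20. Of the 16 type 17 genes, 12 were tested, with a median regional difference of 0.11, and the list summed to 511 CPM in duodenum, 445 in jejunum, 764 in cecum, and 521 in colon.

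Counted as cells, the program was held by a small fraction. IL17A or IL17F was detected in 62 duodenal (1.88%), 14 jejunal (1.11%), 87 cecal (8.22%), and 68 colonic cells (4.76%). Both cytokines were seen in 5, 0, 39, and 10 cells. In thinned cells IL17A was seen in 0.775% in duodenum, 0.081% in jejunum, 5.19% in cecum, and 1.14% in colon, and in 0 B and plasma cells, which allows a share of cells with a UMI of up to 0.898% (3 cells of the gate) in colon, the smallest of these gates. Cells with IL17A were thus most frequent in cecum.

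IFNG, the type 1 cytokine, divided the segments in another way, by dissociation kit. It was at 25.5 CPM (95% interval 22.8 to 28.3) in duodenum, 139 CPM (95% interval 130.0 to 148) in jejunum, 29.9 CPM (95% interval 24.8 to 35.8) in cecum, and 134 CPM (95% interval 125 to 144) in colon. It was thus similar in duodenum and cecum, and several-fold higher in jejunum and colon, the pair dissociated with the Multi Tissue kit. After removal of the marked cells the values were 28.0 CPM in duodenum, 180.0 in jejunum, 32.0 in cecum, and 141 in colon. Among the 14 to 117 cells per segment with no UMI of other cell markers, the gap between the kits turned to -3.48 on the log2 scale. In thinned cells IFNG was seen in 3.19% in duodenum, 10.5% in jejunum, 4.04% in cecum, and 13.1% in colon. TBX21, the type 1 transcription factor, had the same order by kit at a lower contrast, with 17.7 CPM in duodenum, 40.0 in jejunum, 18.0 in cecum, and 38.7 in colon. In CD8A+ CD4- cells IFNG was at 50.8 CPM in duodenum, 95.5 in jejunum, 81.9 in cecum, and 196 in colon, where jejunum and cecum were close.

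In all, 15 genes (0.251%) were higher in both Multi Tissue libraries than in both Lamina Propria libraries, and 3 (0.0502%) were lower. Without the marked cells the counts were 34 (0.588%) and 1 (0.0173%) of 5783, including 13 of the 15 and 1 of the 3. The 15 genes included the interferon-induced chemokines CXCL9, CXCL10, and CXCL11 and the enzymes IDO1 and WARS1, the cell division genes MKI67, CENPF, RRM2, and SPC24, and the stromal genes COL3A1, CCL11, SPARCL1, and ADAMDEC1. After removal of likely doublets the differences of COL3A1, ADAMDEC1, and SPARCL1 turned to -0.030, -0.12, and -0.46. With no UMI of other cell markers, those of MKI67 (-1.29), CENPF (-1.83), SPC24 (-0.048), and CXCL10 (-0.67) changed sign. CXCL9 was at 21.8 CPM in duodenum, 295 in jejunum, 0 in cecum, and 137 in colon, and 0.787 CPM in duodenum, 34.5 in jejunum, 0 in cecum, and 9.62 in colon without the marked cells, while CXCL10 and CXCL11 no longer met the rule without them. Leaving out the highest cell of every gene left 13 higher genes, 10 of them among the 15, and ended the calls of CXCL11 and of the 4 stromal genes. The 3 lower genes included IL1R1 and the B cell gene MS4A1, which was at 47.1 CPM in duodenum, 8.62 in jejunum, 27.7 in cecum, and 7.11 in colon and is one of the markers by which cells were removed. Kit and the pair of segments it was used on cannot be told apart, since jejunum and colon differ from duodenum and cecum in both.

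Of 16 type 1 genes, 12 were tested, with a median difference of 0.53 between regions and 0.49 between kits. CCL5 met the rule for the large intestine and CCL4, a chemokine of activated effector T cells, the rule for colon. CCL4 was at 37.8 CPM in duodenum, 202 in jejunum, 183 in cecum, and 473 in colon, and CCL3 at 7.05 CPM in duodenum, 95.4 in jejunum, 39.9 in cecum, and 65.6 in colon. TNF was at 88.6 CPM in duodenum, 55.3 in jejunum, 208 in cecum, and 173 in colon, higher in both large intestinal libraries but with a smallest gap of 1.90-fold. STAT4, the IL12 signal transducer, was at 51.8 CPM in duodenum, 55.3 in jejunum, 36.2 in cecum, and 50.1 in colon. Among 10 tested of 16 cytotoxic genes the median regional difference was 0.88, and none met the regional rule. GZMB, a granzyme, was at 19.0 CPM in duodenum, 84.7 in jejunum, 154 in cecum, and 109 in colon, and PRF1, the perforin gene, at 8.79 CPM in duodenum, 22.9 in jejunum, 34.9 in cecum, and 32.3 in colon. Granzyme genes are closely related, so reads may be shared among copies. NKG7 was at 45.6 CPM in duodenum, 228 in jejunum, 106 in cecum, and 98.5 in colon, and 24.8 CPM in duodenum, 45.4 in jejunum, 86.7 in cecum, and 77.7 in colon without the marked cells, which ended its call for jejunum.

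Jejunum had the most genes of its own. By the 2-fold rule 298 genes (4.99%) were higher in jejunum than in every other segment, against 11 (0.184%) in duodenum, 20 in cecum, and 15 (0.251%) in colon. Without the marked cells 124 of 5783 (2.14%) met the rule in jejunum, of which 78 were among the 298. All 11 tested members of the 18 macrophage and dendritic cell markers were among the 298. Those that reached the minimum of 20 CPM through jejunum alone had to be highest there. REG3G, an antimicrobial lectin of the epithelium, was at 497 CPM in jejunum, 98.5% of it from 1 cell. The removal left 979 of the 1266 jejunal cells, and the part of other cell types in the jejunal calls was not tested.

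Cell division genes were higher in jejunum with and without the marked cells. Of 22 genes 18 were tested, each was highest in jejunum, against 2540 of all 5973 tested genes, and 11 met the rule. Some of these, such as BIRC5 at 5.30 CPM in duodenum, 42.6 in jejunum, 7.23 in cecum, and 14.0 in colon, reached the minimum of 20 CPM through jejunum alone and so had to be highest there. The whole list of 22 summed to 664 CPM in duodenum, 2216 in jejunum, 849 in cecum, and 1152 in colon, and to 599 CPM in duodenum, 2691 in jejunum, 697 in cecum, and 1203 in colon without the marked cells. MKI67, a marker of cycling cells, was at 17.5 CPM (95% interval 15.3 to 19.9) in duodenum, 181 CPM (95% interval 171 to 192) in jejunum, 22.4 CPM (95% interval 18.0 to 27.6) in cecum, and 69.4 CPM (95% interval 62.8 to 76.4) in colon. These UMIs came from 36, 147, 20, and 39 cells. In thinned cells MKI67 was seen in 0.496% in duodenum, 5.83% in jejunum, 0.865% in cecum, and 1.85% in colon. B and plasma cells, which can divide themselves, had it in 1.50% to 3.30%. TOP2A, a topoisomerase of dividing cells, was at 10.2 CPM in duodenum, 106 in jejunum, 22.7 in cecum, and 39.8 in colon, and PCNA, the replication clamp, at 51.6 CPM in duodenum, 161 in jejunum, 67.1 in cecum, and 75.6 in colon. The CD8A+ CD4- cells had the same order, with MKI67 at 24.4 CPM in duodenum, 282 in jejunum, 26.0 in cecum, and 96.9 in colon.

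Of the 13 tested of 20 interferon response genes, 10 were highest in jejunum (against 2540 of all 5973 tested genes), with ISG15, a ubiquitin-like protein, at 19.3 CPM in duodenum, 134 in jejunum, 34.7 in cecum, and 67.7 in colon. Any member that reached the minimum of 20 CPM through jejunum alone had to be highest there, so this count is no independent evidence. GBP2 was the only member of the list to meet the 2-fold rule for jejunum, and ISG15 did not. The median difference of this list was -0.02 between regions and 0.67 between kits. TNFRSF4 (OX40), a costimulatory receptor, was at 82.3 CPM in duodenum, 252 in jejunum, 110.0 in cecum, and 85.1 in colon, and 87.6 CPM in duodenum, 322 in jejunum, 119 in cecum, and 86.2 in colon without the marked cells. It was the single called member among 11 tested of 16 regulatory and inhibitory genes. CTLA4, an inhibitory receptor, was at 68.9 CPM in duodenum, 142 in jejunum, 123 in cecum, and 161 in colon, LAG3 at 15.6 CPM in duodenum, 109 in jejunum, 29.7 in cecum, and 59.2 in colon, and IL10 at 8.33 CPM in duodenum, 40.6 in jejunum, 45.1 in cecum, and 53.0 in colon. These 3 genes were lowest in duodenum.

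Of the 11 genes higher in duodenum, several were genes of plasma cells. JCHAIN, which joins polymeric antibodies, was at 7398 CPM in duodenum, 2026 in jejunum, 988 in cecum, and 1769.8 in colon, and is one of the markers by which cells were removed. TXNDC5, MZB1, DERL3, TNFRSF17, and EAF2 also belonged to this set, and 4 of the 8 tested B and plasma cell markers were among the 11. The gap of EAF2 to the next segment turned to -0.092 and that of MZB1, itself a marker, to -0.23 on the log2 scale without the marked cells. TXNDC5, DERL3, and TNFRSF17 no longer met the rule there either. In that set 6 of 5783 genes (0.104%) were higher in duodenum, 4 of them among the 11. Genes of naive and recirculating T cells met no segment rule in 9 tested of 14, although several were lowest in jejunum. IL7R, the interleukin 7 receptor, was at 1305 CPM in duodenum, 439 in jejunum, 1279 in cecum, and 718 in colon, and TCF7, a transcription factor of naive and memory T cells, at 205 CPM in duodenum, 66.0 in jejunum, 181 in cecum, and 136 in colon. CCR7, a lymph node homing receptor, was at 33.6 CPM in duodenum, 6.09 in jejunum, 15.2 in cecum, and 8.63 in colon. In thinned cells CCR7 was seen in 4.06% in duodenum, 0.405% in jejunum, 1.54% in cecum, and 1.50% in colon, and in at most 0.794% of macrophages. B and plasma cells, which express CCR7 themselves, had it in 2.85%, 1.32%, 6.94%, and 3.89%.

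Colon was highest in genes that respond within minutes to activation or stress. Of 16 tested of 22 immediate early genes, 12 were highest in colon (against 1057 of all 5973 tested genes), and FOSB and ATF3 met the rule. The list summed to 7481 CPM in duodenum, 4135 in jejunum, 9681 in cecum, and 15346 in colon. The CD8A+ CD4- cells had the same order, at 6301 CPM in duodenum, 4023 in jejunum, 7348 in cecum, and 12717 in colon. FOS, a subunit of the AP-1 factor, was at 394 CPM in duodenum, 139 in jejunum, 560.0 in cecum, and 842 in colon, JUN, its partner, at 2448 CPM in duodenum, 884 in jejunum, 2878 in cecum, and 4796 in colon, and FOSB at 324 CPM in duodenum, 41.3 in jejunum, 196 in cecum, and 665 in colon. Of 14 tested of 16 heat shock genes, 10 were highest in colon, with HSPH1, a chaperone, past the rule at 230.3 CPM in duodenum, 127 in jejunum, 243 in cecum, and 506 in colon. In both lists, a member that reached the minimum of 20 CPM through colon alone had to be highest there. The heat shock sum of the CD8A+ CD4- cells was also highest in colon, at 8381 CPM in duodenum, 6630 in jejunum, 7516 in cecum, and 10375 in colon. Immediate early genes also answer to tissue dissociation, whose part was not tested. The colonic set of 15 genes further held ADAMDEC1, a metalloprotease of intestinal stroma and macrophages, at 189 CPM, and the stromal gene MGP at 41.6 CPM. Without the marked cells 14 of 5783 genes (0.242%) met the rule in colon, 13 of them among the 15 and FOSB not. Leaving out the highest cell of every gene left 11, of which 9 were among the 15.

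**Figure D3:**
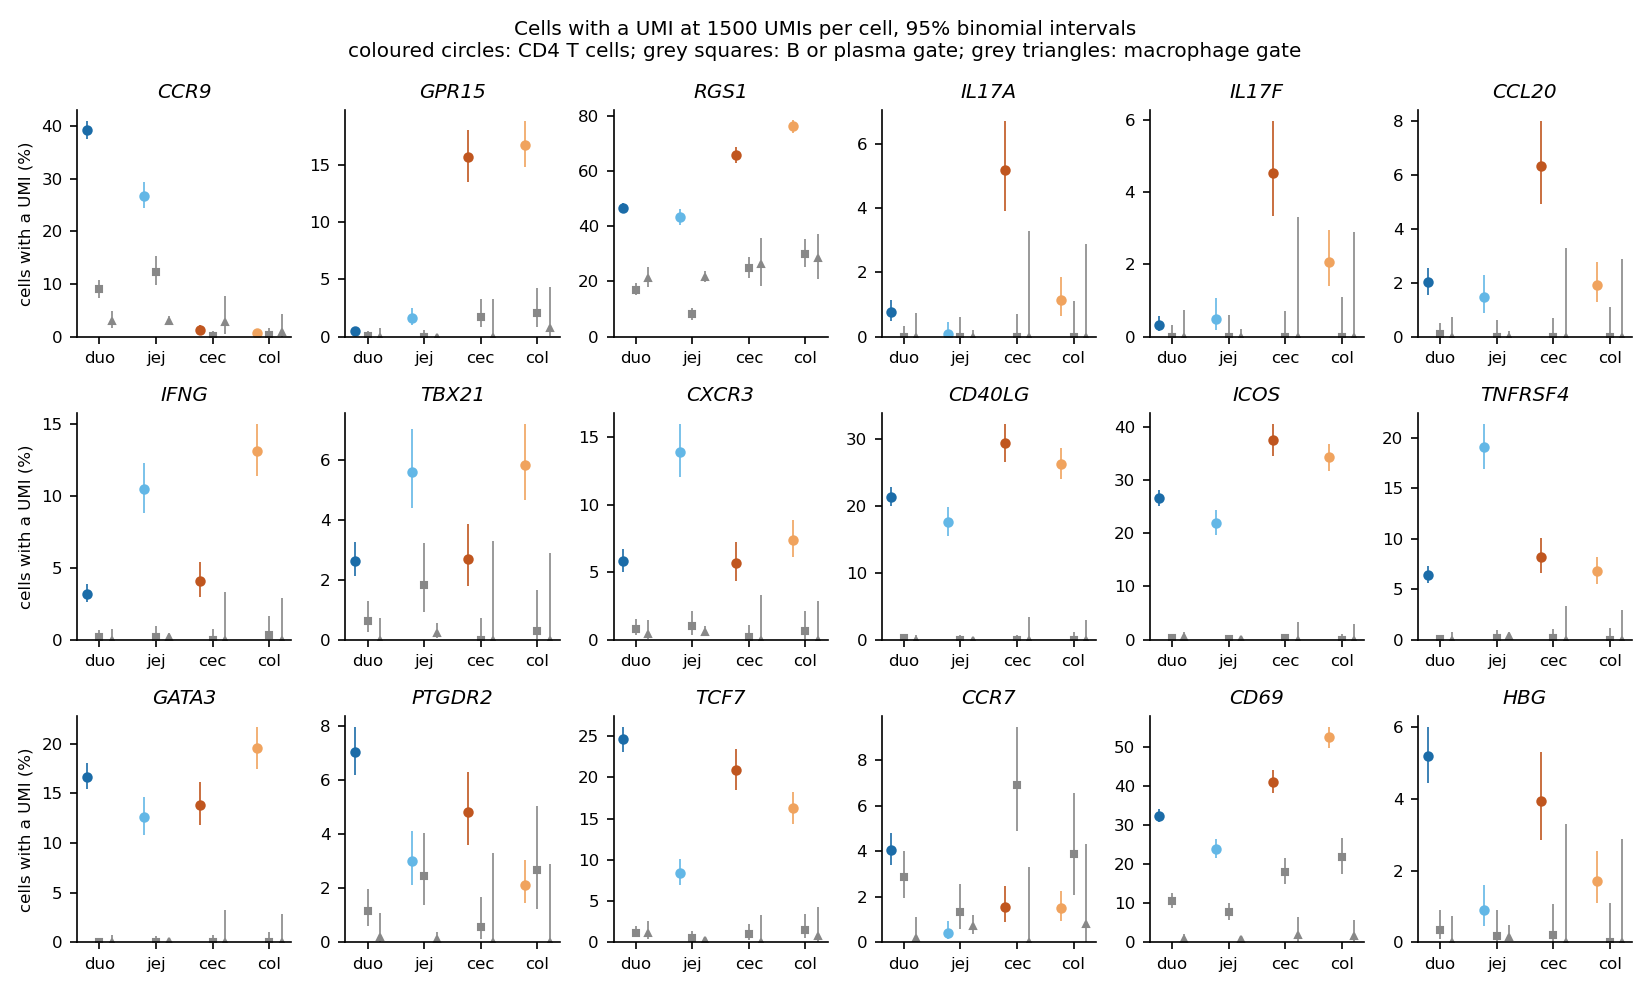
Percent of cells with at least 1 UMI of 18 genes (y axis) by segment (x axis) after thinning to 1500 UMIs, for CD4 T cells (coloured circles), B and plasma cells (grey squares), and macrophages (grey triangles), with exact binomial 95% intervals. ICOS goes from 22.0% in jejunum to 37.6% in cecum, and IFNG is high in jejunum (10.5%) and colon (13.1%).

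Follicular helper genes did not separate the regions by the 2-fold rule in 9 tested of 13 genes, with a median difference of 0.34. CXCR5, the receptor that leads T cells into B cell follicles, was at 35.9 CPM in duodenum, 7.43 in jejunum, 43.6 in cecum, and 24.2 in colon, and BCL6, the factor of that program, at 18.8 CPM in duodenum, 21.5 in jejunum, 32.7 in cecum, and 22.0 in colon. ICOS, a costimulatory receptor, was at 217 CPM in duodenum, 183 in jejunum, 318 in cecum, and 279 in colon, PDCD1 at 60.5 CPM in duodenum, 125 in jejunum, 112 in cecum, and 96.9 in colon, and CD40LG, the ligand by which helper cells activate B cells, at 157 CPM in duodenum, 117 in jejunum, 227 in cecum, and 197 in colon. In thinned cells CD40LG was seen in 21.3% in duodenum, 17.6% in jejunum, 29.3% in cecum, and 26.3% in colon, and in at most 0.178% of B and plasma cells. Its share and that of ICOS were higher in both large intestinal libraries. Of the type 2 list, 3 of 13 genes were tested and none met a rule, with GATA3, its transcription factor, at 110.3 CPM in duodenum, 92.0 in jejunum, 95.5 in cecum, and 130.4 in colon. PTGDR2, a prostaglandin receptor of type 2 cells, was at 57.2 CPM in duodenum, 21.8 in jejunum, 33.7 in cecum, and 16.9 in colon.

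Across the 51 subset genes whose thinned shares were compared, 13 had intervals in both large intestinal libraries that lay apart from those in both small intestinal ones. Over all 5973 tested genes, 43 (0.72%) were apart and higher in large intestine and 39 (0.653%) apart and lower, and the subset genes were chosen with earlier results known. The 10 higher were CCL5, CD40LG, CD69, CD7, GPR15, ICOS, IL17F, KLRJ1, RGS1, and TNF, and the 3 lower were CCR9, HMGCS1, and IDI1. CD40LG was no longer apart when cells were thinned to 1000 UMIs, ICOS when thinned to 2500 UMIs, CD7 and KLRJ1 without likely doublets, and CD40LG, IL17F, and KLRJ1 at 2 or more CD4 UMIs. Among the few cells with no UMI of other cell markers, CCR9 alone stayed apart. In the lists not described so far, no member met a rule for the regions. Of these, the 14 tested cytokine receptor genes had a median regional difference of 0.09, and the 4 GIMAP genes, which support lymphocyte survival, -0.09. Of the mast cell list 1 gene was tested, of the stromal list 1, of the CD8, gamma delta T, and NK list 3, and of the red blood cell list 0.

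The CD4 T cells were next set against the CD8A+ CD4- T cells of the same 4 libraries, with UMIs summed per library and cell class and the library kept as a block in edgeR's quasi-likelihood test. These p-values, adjusted by Benjamini-Hochberg over 10547 genes, measure the spread between segments of 1 cow. Both classes were chosen by CD4 and CD8A, and a difference in these 2 genes is no result. At an adjusted p of 0.05, 1328 genes (12.6%) were higher and 1181 (11.2%) were lower in CD4 T cells. Each SE given with a fit is the absolute log2 fold change divided by the square root of the test's F statistic.

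**Figure D4:**
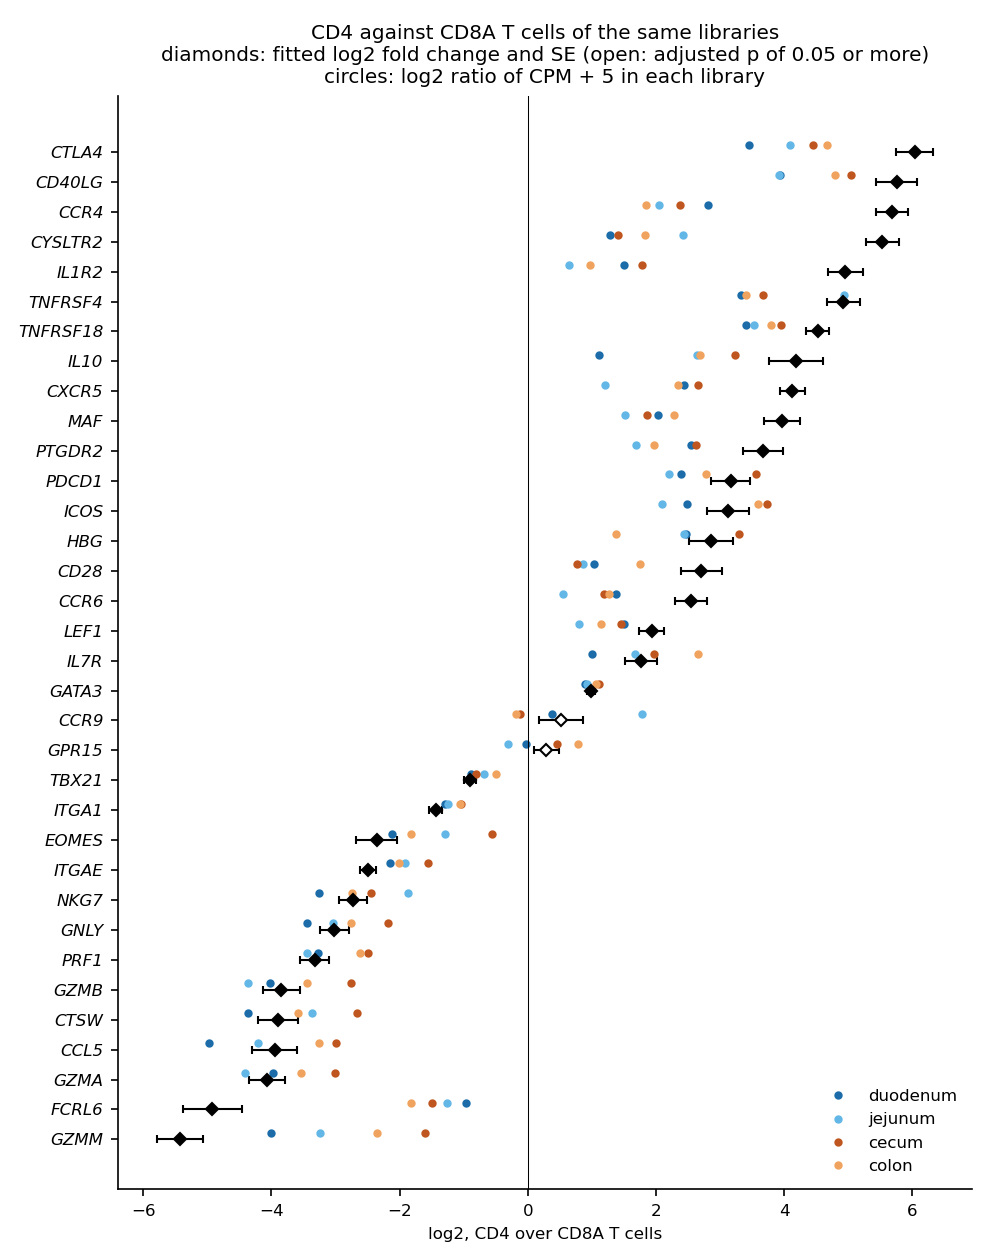
Log2 difference of CD4 minus CD8A+ CD4- T cells for selected genes, with circles for the 4 segments (log2 ratio of CPM with 5 CPM added) and diamonds with bars for the fitted fold change and its standard error (open where not called). The fitted values carry no such pseudocount, so the circles of low genes lie nearer 0 than their diamonds. CTLA4 and CD40LG lie far to the CD4 side and GZMB and CCL5 to the CD8A side.

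Genes of B cell help and costimulation were higher in CD4 T cells. CD40LG, at 157, 117, 227, and 197 CPM in CD4 T cells, was at 5.59 CPM in duodenum, 3.05 in jejunum, 2.03 in cecum, and 2.27 in colon of the CD8A+ cells, a log2 fold change of 5.76 ± 0.32 (SE, n = 4 libraries per class; adjusted p = 0.000138). CXCR5 had 4.13 ± 0.20 (adjusted p = 0.0001) and ICOS 3.13 ± 0.33 (adjusted p = 0.00109). IL21, the follicular cytokine, was low in CD4 T cells, at 1.29 CPM in duodenum, 7.28 in jejunum, 7.48 in cecum, and 5.24 in colon, and held only 2 UMIs in all CD8A+ cells, so no fold is given (adjusted p = 0.00032). Of 10 tested follicular genes 7 rose and none fell. Among the regulatory and inhibitory genes 6 of 13 rose and 3 fell. CTLA4 was at 1.78 CPM in duodenum, 3.66 in jejunum, 0.859 in cecum, and 1.49 in colon of the CD8A+ cells and rose by 6.04 ± 0.29 in CD4 T cells (adjusted p = 9.73e-05) and TNFRSF4 by 4.93 ± 0.26 (adjusted p = 0.000129). IL10, an anti-inflammatory cytokine, rose by 4.19 ± 0.42 (adjusted p = 0.000913).

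Genes of the type 17 and type 2 lineages were also higher in part. Of 14 type 17 genes 8 rose and 1, the lectin receptor KLRB1, fell (-1.44 ± 0.37, adjusted p = 0.0316). The KLRB1 call was lost without the jejunum (adjusted p = 0.0857), cecum (adjusted p = 0.0843), or colon library (adjusted p = 0.110), and with DESeq2, no block, or no marked cells, with a range over all alternatives of 0.00738 to 0.343. IL17F was at 0 CPM in duodenum, 0 in jejunum, 0.781 in cecum, and 0.13 in colon of the CD8A+ cells, and since 2 of these libraries were at 0, no fold is given (adjusted p = 0.000112). Of 5 type 2 genes 3 rose and none fell, with PTGDR2 at 3.67 ± 0.31 (adjusted p = 0.000534) and GATA3 at 0.99 ± 0.07 (adjusted p = 0.000255). CCR4, a chemokine receptor of helper cells, rose by 5.69 ± 0.25 (adjusted p = 9.38e-05). Of the naive and recirculating list 8 of 13 rose and none fell, with IL7R at 1.77 ± 0.25 (adjusted p = 0.00311). The IL7R call was lost with no block (adjusted p = 0.206). The cytokine receptors had 12 of 17 genes higher and 2 lower. The homing list had 7 of 14 higher and 2 lower. CYSLTR2, a leukotriene receptor outside these lists, rose by 5.54 ± 0.26 (adjusted p = 9.69e-05). CFAP58, a gene of ciliary function, was at 24.9 CPM in duodenum, 2.38 in jejunum, 24.4 in cecum, and 12.2 in colon in CD4 T cells and at 0.127 CPM in duodenum, 0 in jejunum, 0 in cecum, and 0.26 in colon in CD8A+ cells.

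Cytotoxic genes were lower in CD4 T cells. Of 14 tested, 13 fell and 1, the granule proteoglycan SRGN, rose, with a median log2 fold change of -3.01. GZMB had -3.84 ± 0.29 (adjusted p = 0.000367), and PRF1 -3.32 ± 0.23 (adjusted p = 0.000255). Of 16 type 1 genes 7 fell and 4 rose. CCL5 had -3.95 ± 0.35 (adjusted p = 0.000626) and TBX21 -0.90 ± 0.10 (adjusted p = 0.00119). The TBX21 call was lost with no block for the library (adjusted p = 0.212). Of 13 residency genes 5 fell and 4 rose, with ITGAE at -2.49 ± 0.13 (adjusted p = 0.000132). Of 22 cell division genes 9 fell and none rose, among them MKI67 at -0.55 ± 0.08 (adjusted p = 0.00366). At 2 or more CD4 UMIs MKI67 was at -0.26 (adjusted p = 0.312, range over all alternatives 1.72e-05 to 0.843).

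Among the remaining lists, 3 T cell receptor and signalling genes rose and 8 fell of 16, 7 immediate early genes rose and 1 fell of 19, 9 interferon response genes rose and 1 fell of 19, and 3 of 4 GIMAP genes fell. Of 22 sterol synthesis genes 5 fell and none rose, and of 15 heat shock genes 5 rose and none fell. Of 13 B and plasma cell markers 3 rose and 2 fell. Macrophage and dendritic cell markers were higher for 10 of 13 genes, with C1QA at 2.82 ± 0.40 (adjusted p = 0.00338). Without the marked cells 2596 genes were called in place of 2509. IFNG was not called (-0.66 ± 0.29, adjusted p = 0.153), nor were CCR9 (0.52 ± 0.34, adjusted p = 0.327) or GPR15 (0.29 ± 0.20, adjusted p = 0.348). Without the jejunum library IFNG passed at -1.04 (adjusted p = 0.00731, range over all alternatives 0.00731 to 0.826) and GPR15 at 0.50 (adjusted p = 0.0411, range 0.0411 to 0.938). After thinning to 1500 UMIs IFNG also passed, at -0.74 (adjusted p = 0.0427).

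The cells with IL17A or IL17F were compared with the other CD4 T cells in duodenum, cecum, and colon, because the 14 jejunal cells were under the minimum of 20 for a summed profile. In this fit with 3 libraries, 52 of 8229 genes (0.632%) rose and 31 (0.377%) fell. IL22 rose by 3.81 ± 0.33 (adjusted p = 0.00022), IL26, a related cytokine, by 3.42 ± 0.49 (adjusted p = 0.00532), and CCL20 by 3.13 ± 0.48 (adjusted p = 0.00689). IL1R1 rose by 1.99 ± 0.32 (adjusted p = 0.00957). In the type 17 list 5 of 12 tested genes rose and none fell.

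**Figure D5:**
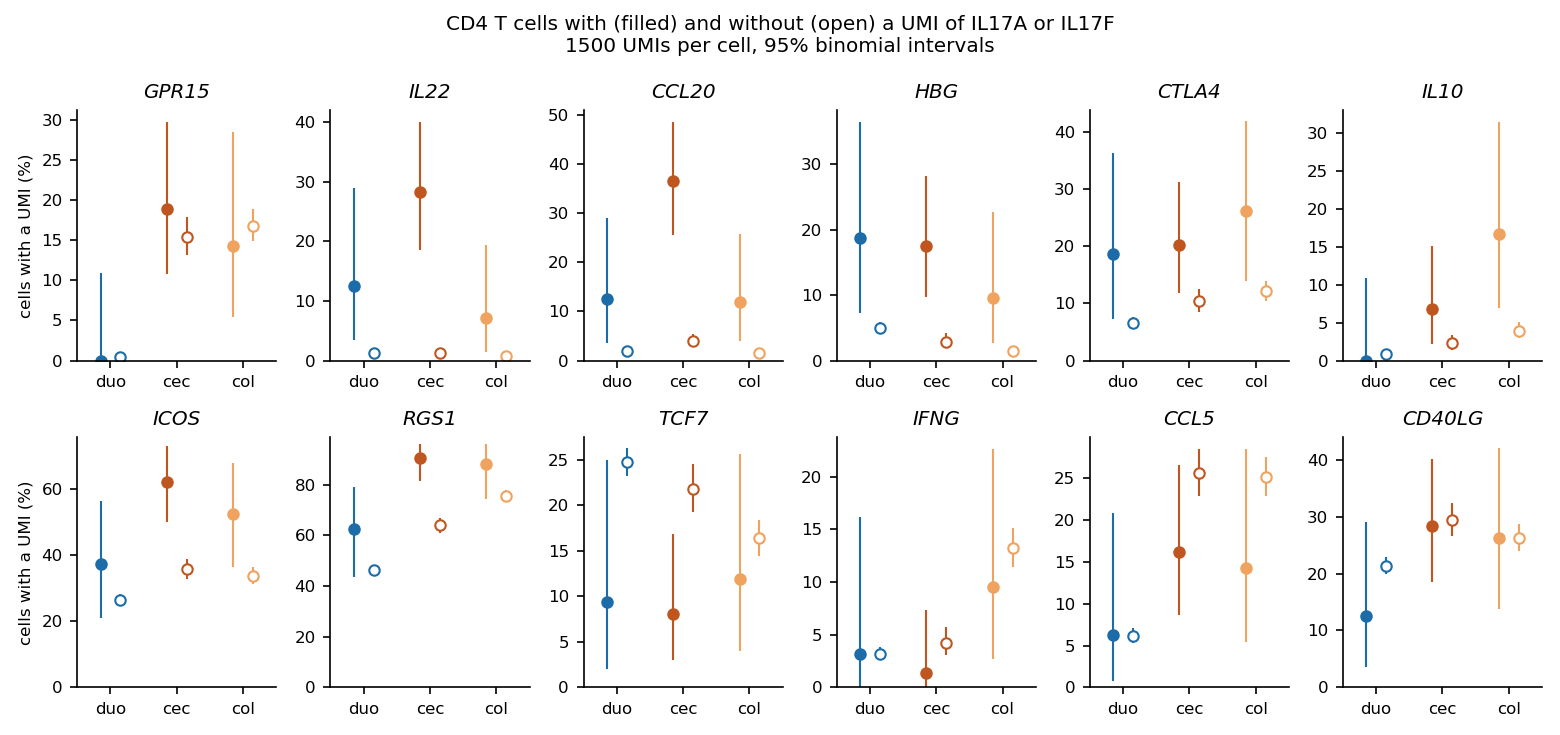
Percent of thinned cells with at least 1 UMI of each gene among cells with IL17A or IL17F (filled) and among the rest (open), in duodenum, cecum, and colon, with exact binomial 95% intervals. In cecum IL22 is seen in 28.4% of the former and 1.24% of the rest.

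IL17 cells also had more of 2 inhibitory genes. IL10 rose by 2.19 ± 0.24 (adjusted p = 0.00072) and CTLA4 by 1.32 ± 0.17 (adjusted p = 0.00259). After thinning, IL10 was seen in 0%, 6.76%, and 16.7% of the 32 duodenal, 74 cecal, and 42 colonic IL17 cells, against 0.845%, 2.28%, and 3.89% of the rest. CTLA4 was seen in 18.8%, 20.3%, and 26.2%, against 6.67%, 10.5%, and 12.1%. These 2 were the called genes of the 12 tested regulatory genes, and ICOS, at 0.78 ± 0.12 (adjusted p = 0.00957), and TOX those of 10 follicular genes. RGS1 rose by 1.00 ± 0.13 (adjusted p = 0.00267), and 4 of 17 immediate early genes and 3 of 15 heat shock genes rose.

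TCF7 fell in the IL17 cells, with -1.42 ± 0.18 (adjusted p = 0.00171), and was seen in 9.38%, 8.11%, and 11.9% of them against 24.8%, 21.8%, and 16.4% of the rest. Of 16 cell division genes 4 fell and none rose, with MKI67 (adjusted p = 0.00547) at 0, 3.40, and 3.83 CPM against 17.9, 23.9, and 72.4 CPM. This call was lost without the cecum (adjusted p = 0.196) or the colon library (adjusted p = 0.128), with a range over all alternatives of 5.51e-08 to 0.616. MKI67 was seen in 0 of 32, 74, and 42 thinned IL17 cells, which allows shares of cells with a UMI of up to 9.38%, 4.05%, and 7.14% by the same floor of 3 cells. Some genes of other cell types also fell in the IL17 cells. The epithelial list had a median log2 fold change of -1.38, with 1 of 8 tested genes, KRT19, called, and the macrophage and dendritic cell list -1.59, with 1 of 11, CD68, called. Among the other called genes were EBD at -3.28 ± 0.22 (adjusted p = 1.56e-05) and PIGR, the epithelial antibody transporter, at -4.21 ± 0.46 (adjusted p = 0.000709). TFF3, a peptide of goblet cells, was at 0, 6.81, and 0 CPM against 0.464, 221, and 12.7 CPM (adjusted p = 0.000322), and SPINK1 at 0, 37.4, and 0 CPM against 1.01, 214, and 80.9 CPM (adjusted p = 0.00292). EBD was no longer called without the cecum library (-3.29, adjusted p = 0.202, range over all alternatives 1.46e-41 to 0.833), nor PIGR (-3.49, adjusted p = 0.692, range 1.00e-14 to 0.827), and none of these 4 genes was called under 10% mitochondrial UMIs. The part of these cells' transcripts in the other calls of the fit was not tested. IFNG was seen in 3.12%, 1.35%, and 9.52%, against 3.19%, 4.24%, and 13.2%, with overlapping intervals. The homing receptors had close shares in IL17 cells and the rest, with CCR9 in 40.6% against 39.2% in duodenum, and GPR15 in 18.9% against 15.4% in cecum and 14.3% against 16.8% in colon. The calls of this fit rest on few cells. Without the cecum library 4 genes were called, and of the genes named from this fit IL22 alone passed, with 2.93 (adjusted p = 0.0481), while CTLA4 was at 1.22 (adjusted p = 0.395) and IL10 at 2.34 (adjusted p = 0.137). Without the duodenum library 244 genes were called. Over all alternatives the adjusted p ranged from 1.69e-77 to 0.144 for IL22, 1.28e-20 to 0.557 for CTLA4, and 2.18e-20 to 0.538 for IL10.

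Among thinned duodenal cells with CCR7, TCF7 was seen in 51.9% against 23.4% of the rest and CCR9 in 16.0% against 40.2%. These and the following shares are counts of cells within single libraries and were not tested across samples. Cells with CCR9 were also compared with the others of their segment as shares. In duodenum IL7R was seen in 75.6% of 1267 thinned CCR9 cells against 63.1%, and in jejunum in 49.5% of 331 against 33.9%. CD40LG was seen in 24.4% against 19.3% in duodenum and in 23.9% against 15.3% in jejunum. Both shares were higher among CCR9 cells in both segments. CTLA4 was seen in 4.10% against 8.52% in duodenum and in 12.7% against 11.3% in jejunum. Among cells with IFNG, CCL5 was seen in 47.6% against 24.0% in cecum and in 39.7% against 22.6% in colon.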

How the data were processed

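Single cells of the 4 adult segments had been captured with 10x Genomics v3 chemistry. The authors made the deposited count matrices, whole UMI counts per gene and barcode, with Cell Ranger 3.1.0 against the bovine assembly ARS-UCD1.2. Their later filters on genes, UMIs, and mitochondrial share were part of their own analysis. Gene symbols were those paired with the identifiers in the deposited files. The matrices were used as deposited, with the rule of the report and no doublet removal; doublet calling by scrublet in scanpy 1.11.5, at 0.8% per 1000 barcodes, was an alternative. CPM were computed from summed UMIs. Segments were compared without a test by the 2-fold rule among genes at 20 CPM or more. Shares were thinned to 1500 UMIs, which left out 74, 32, 18, and 26 CD4 T cells. B and plasma cells and macrophages were gated by the same filter on their own markers. Fits used edgeR 4.0.16 (quasi-likelihood test, filterByExpr, TMM, library as block, Benjamini-Hochberg at 0.05) in R 4.3.3, with DESeq2 1.42.0 as an alternative, and were tested on simulated data. Because segments come from 1 cow, the block is the library and p-values describe these segments. The design called for the IL17 fit on 4 libraries; it was run on 3. A further split of the CD4 T cells is not reported here.

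The members and the 23 gene lists were chosen with earlier results of these data known, and the sterol list after the values had been seen. Genes were named from these lists and, outside them, by the largest gaps: 5 per segment and per regional direction, and 10 per direction of a fit with the same sign in every library. Genes named beyond that rule, such as the sterol genes other than those called, were chosen after their values were seen.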

Additional observations from a re-analysis of the deposited data

Results flagged for a closer look

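In 6 of 112 genes examined (5.36%), against 690 of all 10547 tested genes (6.54%), the difference between CD4 and CD8A+ CD4- T cells lay on one side of 0 in both small intestinal libraries and on the other side in both large intestinal ones. With 2 libraries per region the difference between regions was not tested. For CCR9 the log2 ratio of CD4 over CD8A+ cells, on CPM with 5 CPM added, was 0.38 in duodenum, 1.78 in jejunum, -0.12 in cecum, and -0.18 in colon, so that the mean in large minus small intestine was -1.23. For GPR15 the ratios were -0.03, -0.31, 0.46, and 0.78, a difference of 0.79. Such opposite signs were no more frequent among the examined genes than among all tested genes. Neither CCR9 nor GPR15 was called in the fit against the CD8A+ CD4- cells. For INSIG1 the ratios were 0.47, 0.21, -0.74, and -0.43, a difference of -0.92. For LAT, an adaptor of T cell receptor signalling, they were -0.09, -0.56, 0.19, and 0.14, a difference of 0.49. The keratin KRT19 had -0.81, -0.49, 0.23, and 0.54, a difference of 1.04, and SPINK1, a protease inhibitor of epithelium, -0.04, -1.04, 0.00, and 0.81, a difference of 0.95. The ratios of GPR15 and SPINK1 in duodenum and of SPINK1 in cecum lay within 0.04 of 0.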

How the results depend on the processing

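Of the counts and shares that answer a comparison, 122 of 198 values under alternatives stayed within 1.5 times the reported count or within its error, and 76 moved; the cause was not tested except where a setting by its construction leaves fewer cells, genes, or libraries. CD4 T cells numbered 2750, 1102, 934, and 1269 under a limit of 10% mitochondrial UMIs, 3042, 1122, 969, and 1336 without likely doublets, 2019, 875, 591, and 940 (33.5%, 22.8%, 7.65%, and 12.5% of CD3E+ cells) at 2 or more CD4 UMIs, and 76, 14, 117, and 116 (40.2%, 23.3%, 19.7%, and 24.9%) with no UMI of other cell markers. Without cells marked by macrophage or B cell UMIs there were 3093 in duodenum and 979 in jejunum (27.5%). Genes higher and lower in the large intestine numbered 13 and 5 at a pseudocount of 20 CPM, 33 and 13 without marked cells, 75 and 118 with no other marker, and 52 and 22 without jejunum, and 14 were lower at 1 CPM. Genes higher and lower with the Multi Tissue kit numbered 7 and 1 at 20 CPM, 9 and 1 at a 50 CPM minimum, 34 and 1 without marked cells, and 65 and 66 with no other marker; 42 were higher at 1 CPM and 1 lower after thinning. Duodenum had 7 genes at 20 CPM or the 50 CPM minimum, 4 without doublets, 6 without marked cells, and 164 with no other marker. Jejunum had 164, 159, 124, and 891 at 20 CPM, the 50 CPM minimum, without marked cells, and with no other marker. Cecum had 7 under 10% mitochondrial UMIs, 13 at 2 or more CD4 UMIs or the 50 CPM minimum, 11 after thinning, 8 without the highest cell, and 42 with no other marker. Colon had 7 at 20 CPM or after thinning, 8 at the 50 CPM minimum, 30 with no minimum, and 37 with no other marker, where 1 of the 51 subset genes separated the regions in place of 13.

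The fit against CD8A+ cells gave 531 calls in place of 2509 with no replicate block, and 1501 to 2270 when 1 library was left out, the fewest without colon. The IL17 fit gave 1 call in place of 83 with no replicate block, 245 with no filter, 55 under 10% mitochondrial UMIs, 32 at 2 or more CD4 UMIs, 140 without marked cells, and 4 to 244 when 1 library was left out. With no other marker, cells were too few for the fits, and these log2 differences changed sign: CD96 (-0.028), CD7 (-0.91), ADGRG1 (-2.10), IDI1 (-1.99), INSIG1 (-2.12), IFNG (-3.48), MKI67 (-1.29), CENPF (-1.83), CXCL10 (-0.67), SPC24 (-0.048), EAF2 (-0.67), CCL20 (-1.57), CHGA (-2.33), and ADAMDEC1 in colon (-0.91). So did KRT19 (-0.33) and CA2 (-0.018) under 10% mitochondrial UMIs, COL3A1 (-0.030), ADAMDEC1 (-0.12), and SPARCL1 (-0.46) without doublets, and EAF2 (-0.092), MZB1 (-0.23), NKG7 in jejunum (-0.86), and C1QA, itself a marker of that filter, against CD8A+ cells (-0.13) without marked cells. A median depth of 3316.5 to 4308 UMIs per cell limits what a UMI of 0 can say.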

Other observations

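HBG, annotated as a gamma globin gene, was found in CD4 T cells at 100.5 CPM (95% interval 95.1 to 106) in duodenum, 60.2 CPM (95% interval 54.5 to 66.3) in jejunum, 90.5 CPM (95% interval 81.4 to 100.3) in cecum, and 32.8 CPM (95% interval 28.4 to 37.8) in colon. These UMIs came from 245, 24, 53, and 38 cells. The red blood cell list summed to 2.27, 1.19, 2.74, and 0.508 CPM in the same cells, and CD8A+ CD4- cells had HBG at 14.0 CPM in duodenum, 7.07 in jejunum, 4.69 in cecum, and 9.60 in colon. In thinned cells HBG was seen in 5.18% in duodenum, 0.891% in jejunum, 3.94% in cecum, and 1.71% in colon of the CD4 T cells, against at most 0.357% of B and plasma cells. It was higher in CD4 than in CD8A+ cells, with log2 fold change 2.86 ± 0.34 SE, adjusted p = 0.00175. HBG was also higher in the IL17A or IL17F cells, with log2 fold change 2.58 ± 0.30 SE, adjusted p = 0.000946, a call that was lost without the cecum library (1.94, adjusted p = 0.137, range over all alternatives 1.88e-53 to 0.304). Globin genes are closely alike, so which copy the reads came from is uncertain.

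KLRJ1 was held by few CD4 T cells, whose shares with CD7 and CCL5 differed from the rest in colon. Of the 23 thinned colonic cells with KLRJ1, CD7 was seen in 52.2% (95% interval 30.6 to 73.2) against 3.62% of the rest, and CCL5 in 73.9% (51.6 to 89.8) against 24.0%. For CD5, at 21.7% (7.46 to 43.7) against 43.3%, and CD40LG, at 8.70% (1.07 to 28.0) against 26.6%, the interval held the share of the rest. In CD8A+ CD4- cells KLRJ1 was at 9.14 CPM in duodenum, 34.4 in jejunum, 366 in cecum, and 515 in colon, above the CD4 T cells in 3 of the 4 segments. These cells and genes were chosen after their values were seen.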
